A study of Homo sapiens with 24 samples.

Results

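Transcripts of 9 genes, grouped as ductal keratins and ductal identity genes, were followed in Panc-1 cells. They are the keratins KRT7, KRT8, KRT18, KRT19, KRT80 and KRT81 and the transcription factors SOX9, ONECUT2 and SOX4. Not all of them are specific to ducts. The 9 were taken by gene symbol from the 14413 genes listed in any of the 3 deposited tables, and all 9 were listed in each table. The Panc-1 line was derived from a pancreatic ductal adenocarcinoma (PDAC). Cells were stably transfected with the empty Tet-One plasmid, with Tet-MIST1 (rat MIST1 with a myc tag) or with Tet-PTF1a (mouse PTF1a with a myc tag). In Tet-One plasmids doxycycline (Dox) switches on the insert, and the study asked whether these acinar factors could move PDAC cells toward an acinar-like state. Each line gave 4 Control libraries without Dox and 4 libraries of cells that received Dox (1 µg/ml) over 72 h, which makes 24 libraries. The labels give passage 33 for Tet-MIST1 and passage 32 for Tet-One and Tet-PTF1a. All cells were selected with puromycin, and each plasmid is held by its own line, so that line, plasmid and preparation cannot be told apart when lines are compared.

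Keratins are the intermediate filament proteins of epithelia. A filament is built from pairs of 1 type I chain (here KRT18 and KRT19) and 1 type II chain (here KRT7, KRT8, KRT80 and KRT81). KRT8 and KRT18 are the first pair of simple epithelia, KRT19 and KRT7 are added in ducts and in PDAC, KRT80 is found in many differentiating epithelia, and KRT81 is a hair keratin that some carcinomas express. SOX9 and the ONECUT factors maintain duct identity, and SOX4 is a relative of SOX9 with roles in progenitors and carcinomas. Acinar cells also carry KRT8 and KRT18 but little KRT7, KRT19 or SOX9.

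The libraries held 17210989 to 43018494 counts in genes, and both ends of this range belong to Tet-PTF1a. No pair of libraries of a group agreed within sampling noise. In Tet-PTF1a, PTF1A was at 0 to 2 counts in each Control library and at 53 to 168 counts in each Dox library. These counts are of the human gene, while the insert is of mouse. BHLHA15, the human MIST1 gene, was listed for Tet-PTF1a and not for Tet-MIST1, so that the label of Tet-MIST1 was not checked. Of 12 duct markers (5 of them members) 8 were measured, with KRT8 the most abundant. Dox replicate 1 of Tet-One stood apart from the other 3 libraries of its group in several members, and the tests and group levels it bears on most are given with and without it.

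Before Dox, KRT8 and KRT18 dominated the keratin transcripts of all 3 lines, with KRT19 next and KRT7, KRT80 and KRT81 below it. Levels of different genes are compared here as the authors' CPM (counts scaled to a common library size) per kb of listed exon length. In the Tet-PTF1a Control libraries KRT8 was at 804 ± 21.3 CPM per kb (SD, n = 4), KRT18 at 727 ± 14.2 and KRT19 at 186 ± 12.9. KRT80 was at 3.76 ± 0.195 CPM per kb, KRT7 at 0.847 ± 0.204 and KRT81 at 0.289 ± 0.0570. Of the factors, SOX9 was at 63.9 ± 2.40 CPM per kb, SOX4 at 35.7 ± 0.793 and ONECUT2 at 0.147 ± 0.0100. KRT7, KRT81 and ONECUT2 were thus rare transcripts, read from 9 to 101 counts per library in this group.

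**Figure D1:**
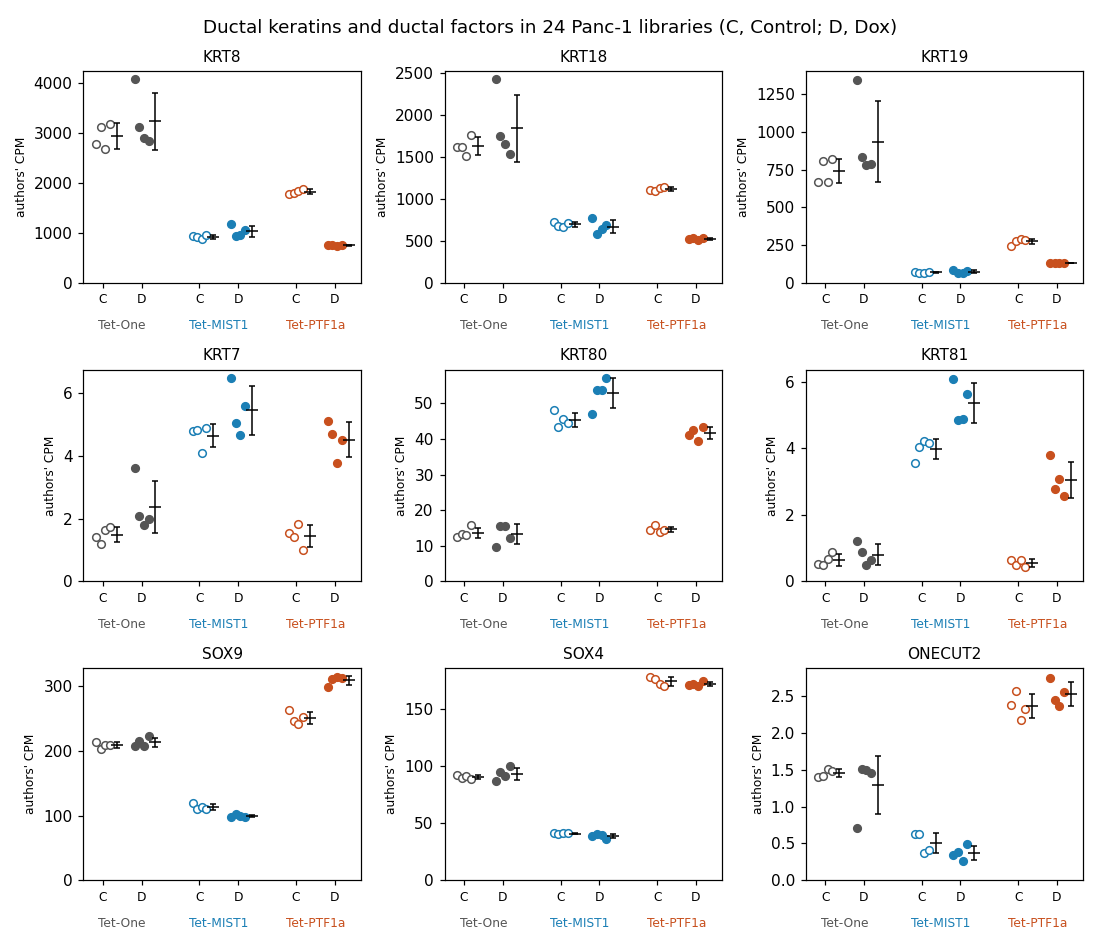
The authors' CPM of the 9 genes is plotted for each library, with open points for Control (C), filled points for Dox (D), and the mean and SD of 4 libraries beside them. In Tet-PTF1a, KRT8, KRT18 and KRT19 lay lower and KRT7, KRT80, KRT81 and SOX9 higher in all 4 Dox libraries than in any Control library. Of the 14053 genes listed for this line, 3013 lay lower and 2926 higher in the same way.

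Induction of PTF1a split the keratins. KRT8, KRT18 and KRT19, which are abundant, fell 2.45-fold, 2.14-fold and 2.10-fold, whereas KRT7, KRT80 and KRT81, which are scarce, rose 3.12-fold, 2.86-fold and 4.89-fold. SOX9 rose 1.23-fold, and SOX4 and ONECUT2 did not pass the test. Folds, log2 fold changes and FDR (Benjamini-Hochberg over all genes tested) are from edgeR's quasi-likelihood test, and a gene with an FDR under 0.05 is called. In this comparison 7 of the 9 members were called, 4 higher and 3 lower, where 48.2% of 14053 genes tested were called (23.8% higher and 24.4% lower). Beyond passing the test, a change of at least 1 on the log2 scale was reached by 6 members, against 3.57% of all genes tested. The median log2 fold change was 0.10 over the 9 members and 0.00 over all genes tested, and the median size of the change was 1.10 against 0.12. The members were chosen with earlier results of these data known. Their excess over all genes, here and in the comparisons below, is thus a description and not a test. In RNA from whole cultures, fewer cells that express a gene and less RNA per cell cannot be told apart.

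KRT8 lies at chr12:53290971-53343650 on the minus strand (hg19). Its 4 Control libraries of Tet-PTF1a were at 1779, 1782, 1841 and 1879 CPM and its 4 Dox libraries at 749, 741, 726 and 751 CPM. The groups were far apart and each was tight, with a log2 fold change of -1.30 ± 0.02 (SE, edgeR FDR 2.44e-44). KRT18, its type I partner, lies beside it at chr12:53342655-53346685 on the plus strand. The KRT18 Control libraries were at 1102, 1096, 1124 and 1143 CPM and the Dox libraries at 517, 530, 507 and 534 CPM. This gave -1.10 ± 0.02 on the log2 scale (edgeR FDR 1.06e-40), again with no overlap. The listed exons of KRT8 and KRT18 share 135 bases on opposite strands, 5.96% of those of KRT8 and 8.80% of those of KRT18, and whether the counting used strand is not given in the sources used here.

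KRT19, a type I keratin much used as a duct marker, lies on another chromosome at chr17:39679869-39684641. Its Control libraries were at 245, 277, 287 and 283 CPM and its Dox libraries at 128, 128, 129 and 132 CPM. All Dox libraries lay at about the same level, below every Control library, and the log2 fold change was -1.07 ± 0.05 (edgeR FDR 2.80e-07). KRT8, KRT18 and KRT19 have many processed pseudogenes, with 51, 67 and 5 named in the GENCODE v44lift37 annotation, and how the authors' counting treated reads shared with them is not given.

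The keratins that rose began from low levels. KRT80 (chr12:52562780-52585784) was at 14.4, 15.7, 14.0 and 14.4 CPM in Control and at 41.2, 42.6, 39.4 and 43.4 CPM in Dox. Its rise of 1.52 ± 0.05 on the log2 scale (edgeR FDR 3.81e-31) rested on 281 to 1426 counts per library. KRT7 (chr12:52626954-52642709), the usual type II partner in ducts, was at 1.53, 1.40, 1.84 and 0.997 CPM in Control and at 5.11, 4.71, 3.76 and 4.51 CPM in Dox. The lowest Dox library of KRT7 was still above the highest Control library, with a log2 fold change of 1.64 ± 0.15 (edgeR FDR 3.69e-14). KRT81 (chr12:52679697-52685299) was at 0.637, 0.504, 0.645 and 0.420 CPM in Control and at 3.79, 2.78, 3.09 and 2.56 CPM in Dox. It had the largest rise of the 9 members, 2.29 ± 0.19 on the log2 scale (edgeR FDR 1.85e-15), and the fewest counts of the keratins, 9 to 27 per Control library. KRT81 is nearly identical to the hair keratin KRT86, and reads of the pair may have been split between them.

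SOX9 (chr17:70117161-70122560) was at 264, 247, 242 and 253 CPM in Control and at 299, 312, 315 and 313 CPM in Dox of Tet-PTF1a. The rise was small but free of overlap, 0.30 ± 0.02 on the log2 scale (edgeR FDR 8.19e-15). SOX4 (chr6:21593972-21598849) was at 178, 177, 172 and 170 CPM in Control and at 171, 172, 170 and 175 CPM in Dox. Its groups overlapped, and the log2 fold change of -0.02 had a 95% interval from -0.07 to 0.03 (edgeR FDR 0.566). ONECUT2 (chr18:55102917-55158530) was at 2.38, 2.58, 2.18 and 2.34 CPM in Control and at 2.76, 2.45, 2.37 and 2.56 CPM in Dox, also overlapping. Its log2 fold change of 0.10 had a wider interval, from -0.17 to 0.36 (edgeR FDR 0.576).

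**Figure D2:**
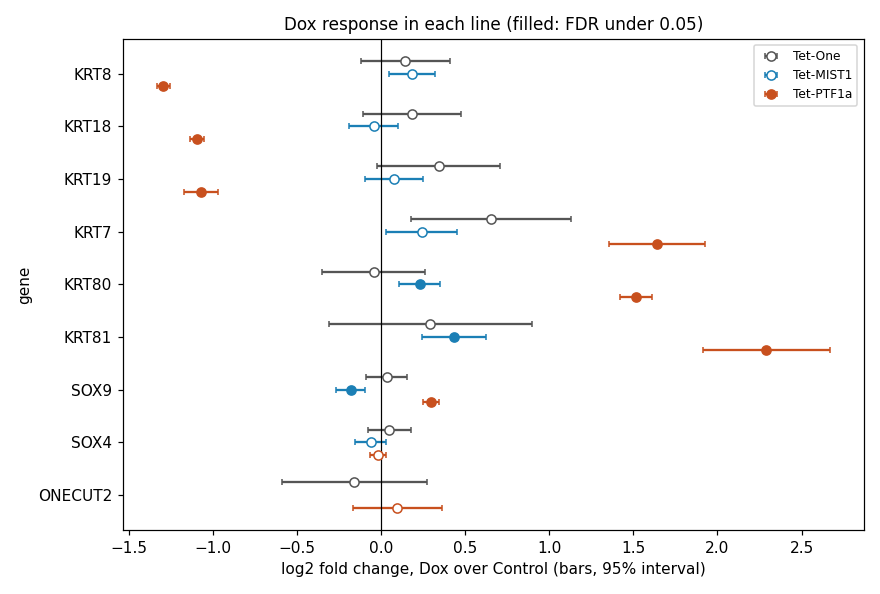
The log2 fold change of Dox over Control is shown for each gene in each line, with the 95% interval as a bar and filled points for FDR under 0.05. The Tet-PTF1a points of KRT8, KRT18 and KRT19 lie near -1, those of KRT7, KRT80 and KRT81 beyond 1, and the Tet-One and Tet-MIST1 points between -0.18 (SOX9, Tet-MIST1) and 0.65 (KRT7, Tet-One). ONECUT2 was not tested in Tet-MIST1.

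Promoter sequence was matched for 3 members, KRT8, SOX4 and ONECUT2, and not used here for KRT7, KRT18, KRT19, KRT80, KRT81 and SOX9. MIST1 and PTF1a are basic helix-loop-helix (bHLH) factors, which bind E-boxes (CANNTG), and the PTF1 complex also reads a TC-box (searched as TGGGAA). The 250 bases before the RefSeq gene start (GRCh38.p14) are shown 5′ to 3′ with matches to either motif on either strand in capitals, for a keratin that fell and the 2 factors that were not called. The KRT8 window lies at chr12:52926470-52926719 (minus strand), at 1 of several starts that annotations give for this gene, the SOX4 window at chr6:21593501-21593750 and the ONECUT2 window at chr18:57435124-57435373 (both plus strand).
KRT8: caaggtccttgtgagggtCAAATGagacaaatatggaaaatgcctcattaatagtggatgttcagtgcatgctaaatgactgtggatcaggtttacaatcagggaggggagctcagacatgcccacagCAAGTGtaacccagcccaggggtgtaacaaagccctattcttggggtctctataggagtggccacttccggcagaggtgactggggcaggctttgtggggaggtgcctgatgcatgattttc
SOX4: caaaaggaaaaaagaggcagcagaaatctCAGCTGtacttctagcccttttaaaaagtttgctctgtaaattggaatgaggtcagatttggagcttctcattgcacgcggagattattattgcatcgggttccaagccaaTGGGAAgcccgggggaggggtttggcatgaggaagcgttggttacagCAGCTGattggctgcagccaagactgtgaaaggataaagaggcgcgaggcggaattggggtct
ONECUT2: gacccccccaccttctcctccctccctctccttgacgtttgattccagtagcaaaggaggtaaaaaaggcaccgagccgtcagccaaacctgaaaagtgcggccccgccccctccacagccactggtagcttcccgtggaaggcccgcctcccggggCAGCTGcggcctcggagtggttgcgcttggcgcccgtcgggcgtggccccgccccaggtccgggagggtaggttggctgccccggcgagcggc
The KRT8 window held 2 E-boxes, neither of the palindromic form CAGCTG, and no TC-box. The SOX4 window held 2 palindromic E-boxes and 1 TC-box, and the ONECUT2 window 1 palindromic E-box. Of 35116 RefSeq promoters cut to the same length, 61.8% held an E-box, 14.0% its palindromic form (which is counted among the E-boxes) and 20.8% a TC-box. These are letter matches, not bound sites, and which KRT8 start these cells use was not tested.

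The type II members lie in order on chromosome 12, and their direction in Tet-PTF1a went with their place in the row. KRT80, KRT7, KRT81 and KRT86 lie within 140 kb of each other, and KRT8 and KRT18 lie 588 kb further on. These 6 were the only genes listed in any of the tables across these 784 kb. KRT86 was named because its row lies next to that of KRT81. It rose by 2.57 ± 0.26 on the log2 scale (edgeR FDR 8.90e-14), from 0.222 to 1.69 CPM.

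**Figure D3:**
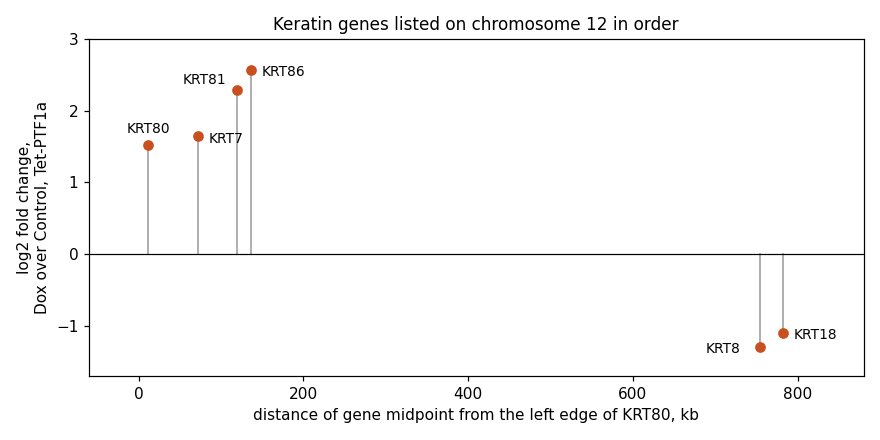
The log2 fold change in Tet-PTF1a is plotted against the distance of each gene's midpoint from the left edge of KRT80, for the 6 listed genes of the chromosome 12 keratin region. KRT80, KRT7, KRT81 and KRT86 on the left are above 0 and KRT8 and KRT18 on the right are below 0.

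The keratin pool shrank and its makeup shifted. The CPM of all listed keratins summed to 3260 ± 81.7 (SD, n = 4) in Tet-PTF1a Control and 1478 ± 26.8 in Dox. KRT7, KRT80 and KRT81 together made up 0.282 ± 0.0207% of the summed keratin CPM per kb in Control and 1.90 ± 0.0674% in Dox. KRT8, KRT18 and KRT19 still made up 95.9 ± 0.174% of it after Dox, against 98.8 ± 0.0834% before. The log2 ratio of KRT8 to KRT18 per kb was 0.14 ± 0.01 in Control and -0.05 ± 0.02 in Dox, with no overlap between groups. The difference was -0.20 (two-sided exact permutation test, p = 0.0286, the smallest that 4 against 4 libraries allow). This ratio and those of KRT19 to KRT18 and KRT7 to KRT8 were chosen after their values were seen, and over the 12 ratios tested in 3 lines the adjusted p is 0.0490. The log2 ratio of KRT7 to KRT8 was 2.97 higher in Dox than in Control of Tet-PTF1a, by the same exact test (p = 0.0286, adjusted 0.0490), and that of KRT19 to KRT18 was 0.023 higher (exact p = 0.83). KRT7 to KRT8 also passed in Tet-One, which has no insert, with 0.50 (exact p = 0.0286, adjusted 0.0490), but had an exact p of 0.0571 when Control replicate 2 or any single Dox library was left out (0.39 without Dox replicate 1). In Tet-MIST1 it was 0.055 higher (exact p = 0.400).

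Type I over type II, as a ratio, lay between 1.02 and 1.27 in the mean of every group. In effect it compares KRT18 and KRT19 with KRT8, and the scarce type II keratins hardly enter it. KRT7, KRT80 and KRT81 together were 1.90% of the summed keratin CPM per kb in Tet-PTF1a Dox and 2.04% in Tet-MIST1 Dox. The log2 ratio of KRT18 plus KRT19 to KRT7, KRT8, KRT80 and KRT81, summed as CPM per kb, was 0.17 ± 0.01 (SD, n = 4) in Tet-PTF1a Control and 0.32 ± 0.02 in Dox. The difference of 0.15 was larger than the spread between libraries (two-sided exact permutation test, p = 0.0286, adjusted 0.0490). In Tet-MIST1 the ratio went the other way, from 0.25 ± 0.02 to 0.03 ± 0.04, a difference of -0.22 (p = 0.0286, adjusted 0.0490, same exact test). In Tet-One it was 0.27 ± 0.04 in Control and 0.34 ± 0.08 in Dox, and the difference of 0.08 did not pass (p = 0.0571, adjusted 0.0857, same exact test), and was 0.038 without Dox replicate 1 (exact p = 0.114). The differences between the lines in this ratio were not tested.

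**Figure D4:**
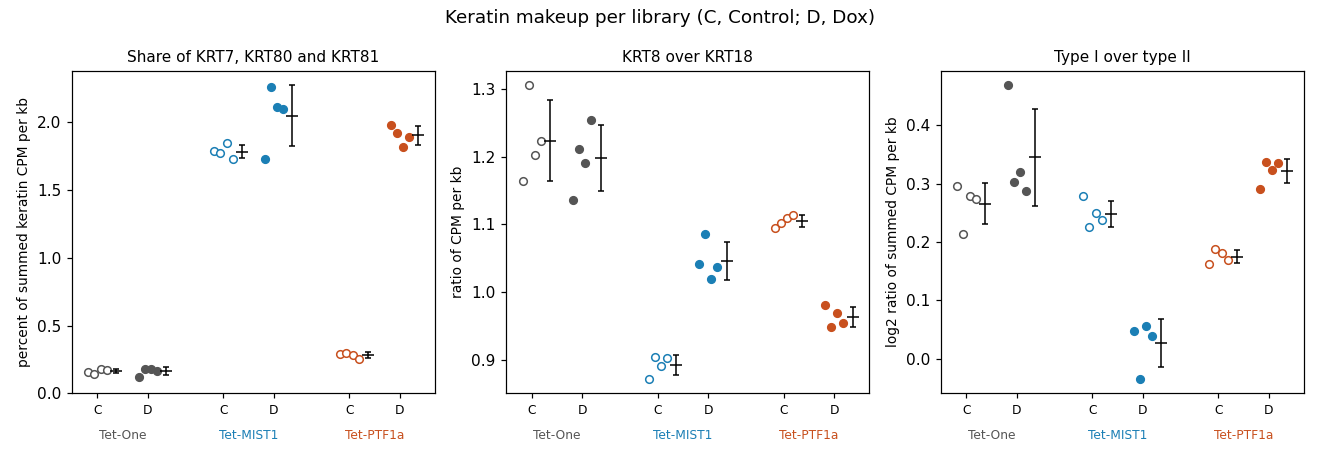
Each point is 1 library, with open points for Control (C), filled points for Dox (D) and the mean and SD of 4 libraries beside them. The share of KRT7, KRT80 and KRT81 (left, percent of summed keratin CPM per kb) is 0.121 to 0.183% in Tet-One Dox, 0.282% on average in Tet-PTF1a Control, 1.81 to 1.98% in Tet-PTF1a Dox and 1.72 to 2.25% in Tet-MIST1. KRT8 over KRT18 (middle, ratio of CPM per kb) fell in Tet-PTF1a and rose in Tet-MIST1, and the log2 ratio of type I to type II (right) moved the other way in both.

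Other keratins, filament proteins and duct genes were mixed in their response to Dox in Tet-PTF1a. Of all genes tested there, 23.8% were called higher and 24.4% lower. Of the 5 other keratins listed anywhere, 4 were tested, and 2 rose, 1 fell and 1 was not called. KRT17, a basal keratin, rose from 0.519 to 1.79 CPM (log2 1.65 ± 0.21, edgeR FDR 5.57e-10), and KRT15 fell from 4.86 to 2.55 CPM (log2 -0.93 ± 0.12, edgeR FDR 7.94e-09). Of 7 other intermediate filament genes tested, 1 rose and 5 fell. The gene that rose was NES, which encodes nestin, from 214 to 782 CPM (log2 1.87 ± 0.02), while VIM, which encodes vimentin, fell from 4777 to 3808 CPM (log2 -0.33 ± 0.02). Among 17 desmosome and keratin linker genes tested, 5 rose and 10 fell, with a median log2 fold change of -0.23. Fewer differed in Dox response between Tet-PTF1a and Tet-One, where 12.8% of all genes tested did. In that test 1 of 16 linker genes was higher, 3 were lower and 12 were not called. Of 7 other filament genes 1 was higher, 3 were lower and 3 were not called, and of 3 other keratins 1, 1 and 1. Without Tet-One Dox replicate 1 this comparison called 4154 of 13519 genes in place of 1736, and no gene list was counted in that fit. PERP, a desmosome membrane protein, fell from 2226 to 1234 CPM (log2 -0.85 ± 0.02), and the plakophilin PKP3 fell from 20.6 to 12.6 CPM (log2 -0.70 ± 0.06).

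Of 13 other duct and epithelial genes tested in Tet-PTF1a, 4 rose, 5 fell and 4 were not called, and their median log2 fold change was -0.02. In the difference from Tet-One in Dox response, 1 of 11 was higher, 3 were lower and 7 were not called. CDH1, the epithelial cadherin, rose from 14.0 to 24.6 CPM (log2 0.82 ± 0.06), and CLDN4, a tight junction claudin, rose from 39.0 to 47.3 CPM (log2 0.28 ± 0.04). FOXA2, an endoderm factor, fell from 62.3 to 42.6 CPM (log2 -0.55 ± 0.04). The SOX family moved in both directions, with 5 of 8 other SOX genes higher and 3 lower. Against Tet-One, their Dox response was higher in 2 of 7, lower in 3 and not called in 2. SOX13 rose from 18.2 to 37.4 CPM (log2 1.04 ± 0.05), and SOX21 fell from 4.44 to 1.02 CPM (log2 -2.02 ± 0.15). Markers of other cell types also changed in this line, those of fibroblasts and immune cells in both directions. The summed CPM of 3 acinar markers measured of 12 went from 39.3-40.4 in Control to 76.3-84.9 in Dox, that of 2 endocrine markers of 8 from 16.5-17.7 to 32.1-35.8, that of 5 fibroblast markers of 8 from 198-208 to 129-132, and that of 2 immune markers of 6 from 63.1-69.0 to 31.3-36.2. By the edgeR test, 2 of the acinar markers rose and 1 of the endocrine markers rose, with 1 of each not called. The acinar sum followed NR5A2, which rose from 39.2 to 77.8 CPM, while the trypsinogen gene PRSS1 rose from 0.0565 to 3.15 CPM. The endocrine sum followed SYP, which rose from 16.5 to 33.7 CPM. Of the fibroblast markers 2 rose and 2 fell, and the sum followed the collagen gene COL1A1, which fell from 153 to 64.5 CPM, while COL3A1 rose from 6.36 to 16.3 CPM. Of the immune markers 1 rose and 1 fell, and the sum followed CD68, which fell from 65.4 to 33.3 CPM, while ITGAM rose from 0.315 to 0.731 CPM. The defining markers PTPRC, CD3E, CD79A, INS, GCG, DCN and LUM were not among them, and their part in the result was not tested.

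The changes with Dox in Tet-MIST1 were small. KRT81 and KRT80 rose, SOX9 fell, and the other 5 members tested were not called. This is 3 of 8, where 20.6% of 13623 genes tested were called (11.9% higher and 8.77% lower). No member reached 1 on the log2 scale, as 0.404% of the genes did, and the median log2 fold change was 0.13 over the members and -0.00 over all genes. KRT81 was at 3.56, 4.03, 4.21 and 4.15 CPM in Control and at 6.08, 4.86, 4.87 and 5.62 CPM in Dox. It rose 1.35-fold without overlap (log2 0.43 ± 0.10, edgeR FDR 0.00996). In this line the Dox libraries lay above all Control libraries in 1740 of 13879 listed genes and below them in 1965. KRT80 was at 48.1, 43.4, 45.7 and 44.4 CPM in Control and at 46.9, 53.9, 53.6 and 57.1 CPM in Dox. Dox replicate 1 fell within the Control range, and the rise of 0.23 ± 0.06 (edgeR FDR 0.0242) is not called when any of 5 single libraries is left out (FDR up to 0.0740).

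SOX9 fell in Tet-MIST1, opposite to its rise in Tet-PTF1a. Its Control libraries were at 119, 110, 114 and 110 CPM and its Dox libraries at 97.6, 102, 99.4 and 98.0 CPM. The groups did not overlap, and the log2 fold change was -0.18 ± 0.04 (edgeR FDR 0.0136), but the call is lost without Control replicate 1 (FDR 0.0573) or Control replicate 3 (FDR 0.0521). The members not called in Tet-MIST1 had log2 fold changes of 0.24 (95% interval 0.03 to 0.45) for KRT7, 0.18 (0.045 to 0.32) for KRT8, 0.08 (-0.09 to 0.25) for KRT19, -0.04 (-0.19 to 0.10) for KRT18 and -0.06 (-0.16 to 0.03) for SOX4. Of these, KRT8 was called without Dox replicate 2 (log2 0.23, edgeR FDR 0.0251). KRT8 was also called with trends with exon length and GC content removed from each library (0.15, FDR 0.0348). KRT18 was called with the length trend alone removed (-0.14, FDR 0.0406). ONECUT2, read from 10 to 27 counts per library, was at 0.506 ± 0.134 CPM (SD, n = 4) in Control and 0.373 ± 0.0983 in Dox and was below the limit for testing in this line.

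The ratio of KRT8 to KRT18 moved in Tet-MIST1, where neither gene was called with all 8 libraries and no trend removed. It was 0.872, 0.904, 0.891 and 0.903 per kb in the Control libraries and 1.04, 1.09, 1.02 and 1.04 in the Dox libraries. The log2 difference was 0.23 with no overlap (two-sided exact permutation test, p = 0.0286, chosen after its values were seen), in the opposite direction to that in Tet-PTF1a. In Tet-One the same ratio was 1.22 ± 0.0596 (SD, n = 4) in Control and 1.20 ± 0.0489 in Dox, a log2 difference of -0.03 (exact p = 0.543), and of -0.0048 without Dox replicate 1 (exact p = 0.886). The ratio of KRT19 to KRT18 also moved in Tet-MIST1, by 0.12 on the log2 scale without overlap (exact p = 0.0286, adjusted 0.0490), but had an exact p of 0.0571 when any single Control library was left out. In Tet-One the same ratio was 0.15 higher in Dox (exact p = 0.114), and 0.10 higher without Dox replicate 1 (exact p = 0.229). In the other lists of Tet-MIST1, the 4 other keratins tested (KRT10, KRT15, KRT32 and KRT86) had FDR of 0.0665 to 0.412 by edgeR. In the desmosome and linker list 1 of 16 rose and 2 fell, and in the duct and epithelial list 1 of 12 rose and 1 fell. Over all genes tested in this line, 11.9% were called higher and 8.77% lower. PKP3 rose from 45.5 to 52.5 CPM (log2 0.22 ± 0.07), CLDN4 rose from 103 to 126 CPM (log2 0.30 ± 0.06), and GLIS3, a zinc finger factor of ducts, fell from 10.4 to 7.64 CPM (log2 -0.43 ± 0.11). In Tet-One, PKP3 went from 19.6 to 22.6, CLDN4 from 31.2 to 36.6 and GLIS3 from 3.32 to 2.93 CPM, with overlapping libraries. Between Tet-MIST1 and Tet-One, 0 of 16 linker genes and 0 of 13 duct and epithelial genes differed in Dox response by edgeR. Of all 13879 genes tested, 1.66% did. Without Tet-One Dox replicate 1 this fit called 1930 genes in place of 231, and the lists were not counted in it.

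In Tet-One, where Dox met no insert, edgeR called 0 of 13428 genes, and so 0 of the 9 members, against 401 genes and 1 member (KRT7) at an unadjusted p under 0.05. DESeq2 also called 0 genes, with 472 at an unadjusted p under 0.05. The number at an unadjusted p under 0.05 by edgeR rested on single libraries. Without Dox replicate 1 it was 1636 and 1 gene was called, whereas without Control replicate 1, 2 or 3 it was 163, 249 and 190, with 0 called. KRT7 was at 1.40, 1.18, 1.65 and 1.72 CPM in Control and at 3.61, 2.07, 1.80 and 1.99 CPM in Dox. The Dox libraries of KRT7 thus lay above those of Control here as well, with a log2 fold change of 0.65 (95% interval 0.18 to 1.13, edgeR FDR 0.897) and of 0.38 without Dox replicate 1 (FDR 0.327). Of 13879 genes listed for Tet-One, 181 lay above and 164 below in the same way. Dox replicate 1 was at 4070 CPM for KRT8, 2427 for KRT18 and 1341 for KRT19, against 2836 to 3109, 1532 to 1740 and 778 to 835 in the other 3 Dox libraries. It was also the lowest of the group for KRT80, at 9.69 against 12.2 to 15.5 CPM, and for ONECUT2, at 0.711 against 1.46 to 1.51 CPM. Without it, the log2 fold changes of the other 8 members in Tet-One lay between 0.0077 (KRT8) and 0.11 (KRT19).

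The response to PTF1a differed from the response to Dox alone in 7 of the 9 members, against 12.8% of 13519 genes tested. The difference in log2 fold change between Tet-PTF1a and Tet-One was -1.44 ± 0.14 (SE) for KRT8, -1.28 ± 0.15 for KRT18 and -1.42 ± 0.20 for KRT19. It was 2.04 ± 0.38 for KRT81, 1.55 ± 0.17 for KRT80 and 0.27 ± 0.06 for SOX9, with an edgeR FDR of 0.0104 at most over these 6. The SOX9 call was lost with the replicate number as a block (FDR 0.0684) and with length and GC trends removed (0.18, FDR 0.0672). KRT7 was at the limit, with 0.98 ± 0.32 (edgeR FDR 0.0474), and its call is lost when any of 12 single libraries is left out, with FDR up to 0.119 (without Tet-PTF1a Control replicate 4). Without Tet-One Dox replicate 1 the same 7 were called, where 4154 of 13519 genes were called in place of 1736, with differences of -1.30, -1.11 and -1.19 for KRT8, KRT18 and KRT19, 2.28 for KRT81, 1.44 for KRT80, 1.27 for KRT7 and 0.26 for SOX9.

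Between Tet-MIST1 and Tet-One 0 of the 9 members differed in their Dox response by edgeR, against 1.66% of 13879 genes tested. SOX9 was the only member at an unadjusted p under 0.05, with -0.22 ± 0.06 (edgeR FDR 0.108), and it was called by DESeq2 (adjusted p 0.00192) and by edgeR without Tet-One Dox replicate 1 (FDR 0.0194), a fit that called 1930 of 13879 genes in place of 231. It was called with the length trend removed (FDR 0.0215) and with length and GC trends removed (FDR 0.0336) as well. Between Tet-PTF1a and Tet-MIST1, 7 of 9 differed, against 36.4% of 13519 genes tested. This difference was -1.47 ± 0.08 for KRT8, -1.04 ± 0.08 for KRT18, -1.14 ± 0.11 for KRT19, 1.42 ± 0.20 for KRT7, 1.29 ± 0.08 for KRT80 and 1.89 ± 0.22 for KRT81. For SOX9 it was 0.49 ± 0.05 (edgeR FDR 1.48e-07). The comparisons between lines share libraries with each other and with those within lines.

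The lines differed in their keratins before any Dox was given. Control libraries are compared on counts fitted together, and levels across lines are given as CPM with TMM factors over all 24 libraries, since the authors' CPM were scaled within each table. In Tet-MIST1 Control against Tet-One Control all 9 members were called, 3 higher and 6 lower, where 80.2% of 13825 genes tested were called (39.5% higher and 40.7% lower). A log2 difference of at least 1 was reached by 8 of the 9, against 17.1% of all genes. KRT19 was 10.9-fold lower (log2 -3.44 ± 0.07, edgeR FDR 1.06e-12), KRT8 3.23-fold lower and KRT18 2.35-fold lower. KRT81 was 5.73-fold higher (log2 2.52 ± 0.14, edgeR FDR 3.12e-12), KRT80 3.30-fold higher and KRT7 3.03-fold higher. The factors ONECUT2, SOX4 and SOX9 were 2.71-fold, 2.23-fold and 1.85-fold lower.

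In Tet-PTF1a Control against Tet-One Control 6 of the 9 were called, 3 higher and 3 lower, where 79.7% of 13442 genes tested were called (39.5% higher and 40.2% lower). Of the 9, 1 reached a log2 difference of 1, as did 9.6% of all genes. KRT19 was 2.87-fold lower (log2 -1.52 ± 0.09), KRT8 1.71-fold lower and KRT18 1.54-fold lower. These 3 differences were smaller in a fit corrected for exon length and GC content, at -1.02 for KRT19, -0.37 for KRT8 (from -0.77) and -0.13 for KRT18 (from -0.62), all still called. With length alone corrected, KRT18 was at -0.39. SOX4 was 1.82-fold higher (log2 0.86 ± 0.03) and SOX9 1.14-fold higher. ONECUT2 was 1.51-fold higher (log2 0.60 ± 0.12, edgeR FDR 0.000117), but at 0.25 (FDR 0.06) with length corrected and at -0.21 (FDR 0.115) with length and GC corrected, so its direction depends on the processing. KRT7, KRT80 and KRT81 had log2 differences of -0.17 (95% interval -0.52 to 0.19), 0.012 (-0.13 to 0.15) and -0.30 (-0.78 to 0.18), and KRT80 was called with length and GC corrected (0.17, FDR 0.0219). The directions for the 6 keratins in Tet-MIST1 Control against Tet-One Control (KRT8, KRT18 and KRT19 lower, KRT7, KRT80 and KRT81 higher) were those of Dox against Control in Tet-PTF1a, and these comparisons share no library. SOX9, called in both as well, went opposite ways, with log2 values of -0.89 and 0.30. How often directions matched over all genes was not computed, and keratins that vary together are not separate matches.

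**Figure D5:**
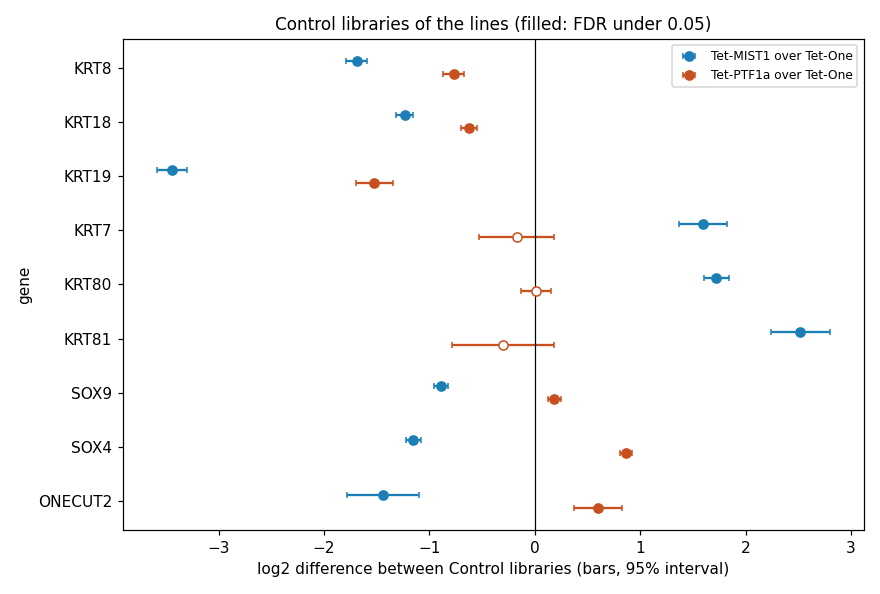
The log2 difference between Control libraries is shown for Tet-MIST1 over Tet-One and Tet-PTF1a over Tet-One, with the 95% interval as a bar and filled points for FDR under 0.05. KRT19 in Tet-MIST1 is the furthest to the left, at -3.44, and KRT81 in Tet-MIST1 the furthest to the right, at 2.52.

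Over the 6 groups the abundant keratins were highest in Tet-One, and lowest in Tet-PTF1a Dox (KRT8 and KRT18) or Tet-MIST1 (KRT19). KRT8 was at 3286 ± 596 CPM (SD, n = 4) in Tet-One Dox, 2979 ± 243 in Tet-One Control, 1766 ± 46.0 in Tet-PTF1a Control, 1051 ± 119 in Tet-MIST1 Dox, 923 ± 32.8 in Tet-MIST1 Control and 718 ± 10.8 in Tet-PTF1a Dox. KRT18 ran from 1870 ± 417 in Tet-One Dox to 505 ± 11.8 in Tet-PTF1a Dox, and KRT19 from 953 ± 280 in Tet-One Dox to 69.2 ± 3.20 in Tet-MIST1 Control. Without Dox replicate 1, Tet-One Dox was at 2993 ± 143 (SD, n = 3) for KRT8, 1666 ± 104 for KRT18 and 813 ± 30.1 for KRT19. For all 3, the Dox and Control libraries of Tet-One overlapped, as did those of Tet-MIST1, and the remaining neighbours were apart.

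The scarce keratins had Tet-MIST1 at the top. KRT80 was at 54.0 ± 4.11 CPM (SD, n = 4) in Tet-MIST1 Dox, 45.9 ± 2.10 in Tet-MIST1 Control and 40.3 ± 1.71 in Tet-PTF1a Dox, and then at 13.4 to 14.2 in the other 3 groups, which overlapped. KRT7 was at 5.57 ± 0.832 CPM in Tet-MIST1 Dox, 4.70 ± 0.376 in Tet-MIST1 Control and 4.38 ± 0.546 in Tet-PTF1a Dox, each overlapping its neighbour. KRT81 was at 5.48 ± 0.643, 4.03 ± 0.298 and 2.96 ± 0.516 CPM in those groups and at 0.535 to 0.819 on average in the other 3 groups, which overlapped. The factors were ordered by line in these CPM, with Tet-PTF1a highest and Tet-MIST1 lowest for all 3. For ONECUT2 the order of Tet-PTF1a and Tet-One Control depends on the processing. It turned with length and GC corrected (log2 -0.21, edgeR FDR 0.115). SOX9 went from 299.9 ± 7.23 CPM in Tet-PTF1a Dox to 101 ± 1.58 in Tet-MIST1 Dox, SOX4 from 169 ± 4.05 in Tet-PTF1a Control to 39.6 ± 1.89 in Tet-MIST1 Dox, and ONECUT2 from 2.45 ± 0.160 in Tet-PTF1a Dox to 0.381 ± 0.0998 in Tet-MIST1 Dox.

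Across the 24 libraries the members fell into groups that varied together. Pearson's r of log2 CPM was 0.99 between KRT8 and KRT18 and 0.93 between KRT8 and KRT19. It was 0.96 between KRT7 and KRT81, 0.87 between KRT7 and KRT80, and -0.92 between KRT19 and KRT80. SOX9, SOX4 and ONECUT2 had r from 0.95 to 0.97 with each other. These values describe 24 libraries in 6 groups and so include differences between lines and Dox states. For these pairs r within groups was not computed.

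Of 9790 genes with a mean over 10 CPM, the 3 most like KRT19 over the 24 libraries were COL9A3 (r = 0.99), GATA5 (r = 0.99) and CSF1 (r = 0.99). Within groups, after each group's mean was removed, r with KRT19 was 0.73 for COL9A3, -0.06 for GATA5 and -0.09 for CSF1. The 3 most like SOX9 were MEST, TGFB2 and STK24 (r = 0.99 each), with 0.56 within groups for TGFB2 and -0.05 and -0.03 for MEST and STK24. The 3 most like KRT7 were SEMA6B (r = 0.94), EPDR1 (r = 0.92) and YKT6 (r = 0.92), with 0.31, 0.63 and 0.63 within groups.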

How the data were processed

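Polyadenylated RNA of 24 Panc-1 libraries was sequenced in paired ends on an Illumina instrument, and the authors aligned reads to hg19 with TopHat; the submitters' processing notes also name HTSeq, DESeq and edgeR, without versions. The authors deposited counts of reads per gene without normalization and, as a signal with a scaled library size, CPM values, after keeping genes over 0.5 CPM in at least 4 samples. Their own comparisons (fold changes, p-values and FDR) were not used. How the counting handled strand and shared reads is not given in the sources used here. Groups came from the sample titles.

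From the counts, Dox and Control, the difference of 2 Dox responses, and Control libraries of 2 lines were compared with edgeR 4.0.16 in R 4.3.3 (glmQLFTest, TMM, robust, prior count 2) over genes over 0.5 CPM in at least 4 libraries of the fit, adjusted over all genes tested. DESeq2 1.42.0 was an alternative. Keratin ratios were tested by exact permutation over the 8 libraries of a line. The scripts were tested on simulated data. Depth of 17210989 to 43018494 counts limits KRT7, KRT81 and ONECUT2 most. The study calls the 4 libraries of a group biological replicates, within 1 stably transfected line each.

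The members and gene lists were chosen with earlier results of these data known. Named from each list are up to 4 genes with the largest change among called genes whose Dox and Control libraries do not overlap, a selection of these; the genes most like KRT7, KRT19 and SOX9 are the 3 with the highest r. Alternatives were another test, scaling and filter, a replicate block, removal of exon length and (added after seeing the data) GC trends from 14274 of 14413 genes with a known GC content, 1 fit of all 24 libraries, a fold limit, and leaving out each library (for the ratios of single keratins and the Tet-One Dox levels, added after seeing the data).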

Additional observations from a re-analysis of the deposited data

Results flagged for a closer look

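In 60 groups of 4 libraries (9 genes and the type I to type II ratio in 6 groups), 5 values lay far from the other 3 of their group, where chance alone gives about 1 in 20 groups. Of these, 3 belong to Dox replicate 1 of Tet-One: KRT19 at 1341 CPM against 778 to 835, KRT7 at 3.61 CPM against 1.80 to 2.07, and ONECUT2 at 0.711 CPM against 1.46 to 1.51. The others were small in size: KRT7 at 4.09 CPM in Tet-MIST1 Control replicate 3, against 4.80 to 4.89, and SOX4 at 40.2 CPM in Tet-MIST1 Control replicate 2, against 40.9 to 41.0.

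The Dox response differed between lines by the interaction test of edgeR in 14 cases. Between Tet-PTF1a and Tet-One the log2 differences were -1.44 for KRT8, -1.28 for KRT18, -1.42 for KRT19, 0.98 for KRT7, 1.55 for KRT80, 2.04 for KRT81 and 0.27 for SOX9. Between Tet-PTF1a and Tet-MIST1 they were -1.47 for KRT8, -1.04 for KRT18, -1.14 for KRT19, 1.42 for KRT7, 1.29 for KRT80, 1.89 for KRT81 and 0.49 for SOX9.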

How the results depend on the processing

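The 7 calls of members in the Tet-PTF1a Dox response were made again whichever library was left out and by DESeq2. In Tet-MIST1, 3 members were called, but 1 with a replicate block, 0 with a log2 change of at least 1 required, and 1 to 4 with 1 library left out (1 without Control replicate 3). For the difference between Tet-MIST1 and Tet-One, 0 members became 1 with DESeq2, with the exon length trend removed and with length and GC trends removed, and 0 to 1 with 1 library left out. For Control libraries of Tet-PTF1a and Tet-One, 6 became 1 with the fold limit. The log2 type I to type II differences kept their direction: 0.038 to 0.098 in Tet-One with 1 library left out (0.038 without Dox replicate 1, and 0.098 with p = 0.0286 by the same exact test without Dox replicate 4), and -0.22 in Tet-MIST1 and 0.15 in Tet-PTF1a with the replicate block, whose smallest possible p is 0.125.

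Of values for single members, 1 that was called turned its sign: ONECUT2 in Tet-PTF1a against Tet-One Control, -0.21 with length and GC trends removed. Uncalled values near 0 turned too. With length and GC trends removed these were ONECUT2 0.012 in Tet-One, SOX4 0.027 and KRT19 -0.032 in Tet-MIST1, SOX4 -0.045 between Tet-PTF1a and Tet-MIST1, and KRT7 0.28 and KRT81 0.11 in Tet-PTF1a against Tet-One Control. With the length trend removed they were KRT19 -0.025 in Tet-MIST1, SOX4 -0.0088 between Tet-PTF1a and Tet-MIST1, and KRT80 -0.041 and KRT7 0.040 in Tet-PTF1a against Tet-One Control. With library size scaling it was SOX4 0.019 in Tet-PTF1a. With 1 library left out, uncalled values spanned 0 for KRT80 (-0.13 to 0.075) and ONECUT2 (-0.24 to 0.034) in Tet-One, KRT18 (-0.12 to 0.021) and KRT19 (-0.015 to 0.15) in Tet-MIST1, KRT8 (-0.036 to 0.18) and KRT81 (-0.038 to 0.40) between Tet-MIST1 and Tet-One, and KRT7 (-0.26 to 0.0065) and KRT80 (-0.031 to 0.083) in Tet-PTF1a against Tet-One Control. Uncalled log2 ratios did so for KRT8 to KRT18 in Tet-One (-0.053 to 0.0017) and KRT19 to KRT18 in Tet-PTF1a (-0.022 to 0.044). The cause was not tested.

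Counts of genes called moved by more than 1.5 times in some fits. In Tet-MIST1 2812 became 1463 (block), 1705 (24 libraries in 1 fit), 55 (fold limit) and 1436 to 3770 with 1 library left out. In Tet-PTF1a 6775 became 3131 (24 libraries in 1 fit) and 501 (fold limit), and the split of 3344 higher and 3431 lower became 4392 and 2698 with library size scaling. Between Tet-PTF1a and Tet-One 1736 became 2668 (length), 2783 (length and GC), 409 (fold limit) and 4154 without Tet-One Dox replicate 1, and 746 higher and 990 lower became 948 and 803 with library size scaling. Between Tet-MIST1 and Tet-One 231 became 499 (DESeq2), 83 (block), 615 (length), 889 (length and GC), 48 (fold limit), 1930 without Tet-One Dox replicate 1 and as few as 144 without another library. Its split of 205 higher and 26 lower became 356 and 143 (DESeq2), 435 and 180 (length), 558 and 331 (length and GC), and 82 and 1 (block). Between Tet-PTF1a and Tet-MIST1 4921 became 470 with the fold limit, and the Control comparisons went from 11088 to 2361 and from 10712 to 1290.

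Replicate numbers did not pair the samples: correlations of same-numbered Control and Dox libraries ran from -0.42 to 0.37, and 1 of 12 Control libraries went best with its own number. With the replicate block KRT7 and SOX9 lost their calls between Tet-PTF1a and Tet-One (FDR 0.0879 and 0.0684). Depth limits KRT7, KRT81 and ONECUT2, which had at most 263, 247 and 101 counts in any library.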
